A study of Homo sapiens with 32 samples.

Results

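The genes described here encode the proteins of the mitochondrial ribosome, and were taken by symbol as every row of the deposited table named MRPL or MRPS followed by a number and, for some, A, B or C. That gave 76 of the 29744 genes in the table, 47 with an MRPL and 29 with an MRPS symbol. By protein, 49 belong to the large subunit, among them MRPS18A and MRPS30 in spite of their symbols, and 26 to the small subunit. MRPS36 was kept by its symbol, although its protein is known as a component of the 2-oxoglutarate dehydrogenase complex.

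Polyadenylated RNA was sequenced in strand-specific libraries from 2 human prostate cancer lines. LNCaP is an androgen-responsive line from a lymph node metastasis, and C4-2B is a castration-resistant line derived from it, so both are single lines of 1 origin. In each line, cells carried siRNA against MOCOS (siMOCOS) or control siRNA (siCTRL), and either received thapsigargin (TG) or, without TG, vehicle according to the series. This gives, for each line, siMOCOS with TG, siMOCOS without TG, siCTRL with TG and siCTRL without TG, 8 groups of 4 libraries in all. TG blocks the SERCA calcium pump and causes stress of the endoplasmic reticulum, and MOCOS is the sulfurase that completes the molybdenum cofactor of xanthine dehydrogenase and aldehyde oxidase. Every cell received an siRNA, and no group is free of transfection. The sources used here do not give a dose or time for TG, and the table does not name which of the 2 siRNAs against MOCOS a knockdown column holds. The knockdown libraries were therefore pooled, and their replicate number is the number of their column. Levels are in CPM, the counts divided by the library's total, itself scaled with TMM factors, and brought to the usual common size. Totals ran from 7.51 to 27.1 M counts per library, and all 76 genes passed the filter on low counts in each fit.

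The mitochondrial ribosome, or mitoribosome, translates the few messages that the mitochondrial genome encodes, all of them core subunits of the respiratory chain and the ATP synthase. Its rRNAs come from the mitochondrial genome, but every one of its proteins is encoded in the nucleus, made in the cytosol and imported. Its large subunit forms peptide bonds and its small subunit decodes the message, and it carries many proteins that bacterial ribosomes lack.

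Promoters of these genes are shown first, because the genes moved in both directions and the letters upstream of them can be read beside their values. RefSeq (GRCh38.p14) gave a window of 300 bases, 250 before and 50 after a transcription start, for 67 of the 76 genes. The sequences below belong to 4 genes that were lower with TG in every setting tested or in 3 of 4 (MRPL44, MRPL20, MRPS25 and MRPL50) and 1 that was higher in all 4 (MRPS18B). They were chosen after the values were seen, among genes with 1 window. Sequences run 5′ to 3′ on the strand of the gene, and capitals mark letters that match 1 of the motifs searched. The windows are chr2:223957213-223957512 (plus strand) for MRPL44, chr1:1407244-1407543 (minus) for MRPL20, chr3:15065266-15065565 (minus) for MRPS25, chr9:101398569-101398868 (minus) for MRPL50 and chr6:30617590-30617889 (plus) for MRPS18B.
MRPL44: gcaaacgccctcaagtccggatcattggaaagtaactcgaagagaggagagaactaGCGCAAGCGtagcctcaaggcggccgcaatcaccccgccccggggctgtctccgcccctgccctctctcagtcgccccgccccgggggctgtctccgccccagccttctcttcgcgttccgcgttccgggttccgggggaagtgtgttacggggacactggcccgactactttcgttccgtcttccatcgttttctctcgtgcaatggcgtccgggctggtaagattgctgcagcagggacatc
MRPL20: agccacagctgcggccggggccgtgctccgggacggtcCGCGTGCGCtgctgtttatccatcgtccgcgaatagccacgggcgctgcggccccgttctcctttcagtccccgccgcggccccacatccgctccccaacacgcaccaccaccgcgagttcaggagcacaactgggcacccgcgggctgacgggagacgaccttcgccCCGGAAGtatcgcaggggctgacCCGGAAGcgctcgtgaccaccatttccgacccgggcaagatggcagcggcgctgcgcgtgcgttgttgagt
MRPS25: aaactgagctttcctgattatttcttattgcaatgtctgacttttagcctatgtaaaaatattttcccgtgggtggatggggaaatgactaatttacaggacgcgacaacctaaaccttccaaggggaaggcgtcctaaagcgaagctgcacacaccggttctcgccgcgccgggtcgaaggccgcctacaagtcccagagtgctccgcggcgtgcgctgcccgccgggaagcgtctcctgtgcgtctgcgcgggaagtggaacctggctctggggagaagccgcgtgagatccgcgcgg
MRPL50: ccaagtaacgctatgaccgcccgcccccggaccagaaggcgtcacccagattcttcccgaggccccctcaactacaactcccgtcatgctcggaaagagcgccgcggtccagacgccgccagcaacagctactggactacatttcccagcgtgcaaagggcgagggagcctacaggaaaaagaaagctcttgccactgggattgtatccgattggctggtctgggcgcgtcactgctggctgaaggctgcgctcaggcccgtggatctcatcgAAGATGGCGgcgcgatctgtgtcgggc
MRPS18B: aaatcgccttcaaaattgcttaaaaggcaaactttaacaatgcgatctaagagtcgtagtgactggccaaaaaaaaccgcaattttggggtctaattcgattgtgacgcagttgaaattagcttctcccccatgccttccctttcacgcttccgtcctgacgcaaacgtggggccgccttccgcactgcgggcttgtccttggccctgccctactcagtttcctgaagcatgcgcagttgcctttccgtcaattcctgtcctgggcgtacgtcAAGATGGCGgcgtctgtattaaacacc

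The motifs were searched on both strands as fixed letters, CCGGAAG for ETS factors including GABPA, GCGCANGCG for NRF1, AAGATGGCG for YY1 and TTGCATCA for ATF4 with C/EBP. GABPA, NRF1 and YY1 are known regulators of nuclear genes for mitochondria, and ATF4 is a transcription factor of the stress response. In MRPL44 the capitals are 1 NRF1 match, and in MRPL20 they are 2 ETS matches and 1 NRF1 match on the other strand. MRPL50 and MRPS18B each hold the YY1 letters at positions 24 to 32 after the start, although the first gene was lower with TG and the second higher. MRPS25 holds no match, which says only that these letters are absent from this window.

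ETS letters stood in 38.6% of the mitoribosomal windows, and in 10.3% of all 35116 windows in the table and 16.3% of those of protein-coding genes tested here. YY1 letters stood in 15.7% of the mitoribosomal windows, 1.75% of all windows and 3.31% of those of tested protein-coding genes. The NRF1 letters were found in 16.9%, 7.52% and 12.4% of the same sets of windows, and those of ATF4 with C/EBP in none of the mitoribosomal windows, against 0.866% of all and 0.549% of tested protein-coding windows. These shares are descriptions and were not tested. Of the 11 genes with a window called lower with TG in both lines, 4 held ETS, 4 NRF1 and 3 YY1 letters. Counted by gene, ETS letters stood in 43.3% of the 67 mitoribosomal genes with a window, and NRF1 and YY1 letters in 19.4% each. Among tested protein-coding genes the shares for ETS, NRF1 and YY1 were 22%, 17% and 4.66%. Of the 2 genes called higher in both lines, 1 held YY1 letters and 0 held ETS or NRF1 letters. Whether these letters go with the change under TG was not tested.

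The knockdown and the cells were checked first. In LNCaP, MOCOS had 9.45, 11.9, 15.5 and 18.5 CPM in siMOCOS cells with TG, against 87.1, 88.7, 95.6 and 94.4 CPM in siCTRL cells with TG. Without TG it had 3.79, 3.32, 3.26 and 3.67 CPM in siMOCOS cells, against 24.1, 23.0, 22.8 and 22.6 CPM in siCTRL cells. C4-2B gave the same picture, with log2 differences of −2.57 with TG and −3.21 without, and no knockdown library overlapped a control library. All 10 markers of luminal epithelium passed the filter in both lines, while 2 of 4 basal or mesenchymal and 2 of 6 immune and stromal markers did. With TG in siCTRL cells, 7 luminal markers were lower and 1 higher in LNCaP, and 6 were lower in C4-2B. Over all genes 25.1% were lower and 24.6% higher in LNCaP, and 19.3% and 21.2% in C4-2B. Of the 2 basal or mesenchymal markers tested, 1 was higher in each line. Of the 2 immune and stromal markers tested, 1 was higher and 1 lower in LNCaP, and 1 was higher in C4-2B. In such bulk libraries fewer cells of a type and less RNA per cell cannot be told apart.

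The share of all counts that fell on the 76 genes ran from 0.310% to 0.538% of a library. Per kilobase of transcript, MRPL51, a protein of the large subunit, was highest in siCTRL cells of both lines without TG. It averaged 406 ± 29.01 CPM per kb in LNCaP and 536 ± 37.1 CPM per kb in C4-2B (SD, n = 4 each). MRPL49 came next with 268 in LNCaP and 318 in C4-2B, followed by MRPL24 with 225 and 271 CPM per kb. MRPL41 was lowest in LNCaP at 2.90 CPM per kb, and MRPS26 and MRPL41 were lowest in C4-2B at 6.17 and 6.95 CPM per kb.

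TG lowered more of these genes than it raised in siCTRL cells of both lines. Calls were made in edgeR's quasi-likelihood test where the adjusted p was under 0.05. In LNCaP 21 of 76 genes were lower and 7 higher with TG, where 25.1% and 24.6% of the 13806 genes tested were called in those directions, and the median log2 change was −0.222, against −0.038 over all genes. In C4-2B 21 were lower and 2 higher, where 19.3% and 21.2% of 14127 genes were called, and the median was −0.332 against −0.009. The share called lower, 27.6% in each line, was close to the background in LNCaP and above it in C4-2B, and the shares called higher, 9.21% in LNCaP and 2.63% in C4-2B, were below it. A log2 change below 0 was found for 58 of the 76 genes in LNCaP and for 63 in C4-2B. Above 0 were 18 and 13 of them, against 6582 of 13806 and 6980 of 14127 over all genes. The C4-2B counts moved with single libraries, with 10 lower genes without siCTRL library 3, 7 without siCTRL library 4 and 12 without siCTRL TG library 3. Leaving out another library could also raise the lower count, as given under the processing. Shares of all genes called in these reduced fits are not given here. No gene was called higher in C4-2B without siCTRL library 2 or 3 or siCTRL TG library 1 or 2, and 1 without siCTRL library 1 or siCTRL TG library 4. In LNCaP, the higher count was 3 without siCTRL library 3.

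**Figure D1:**
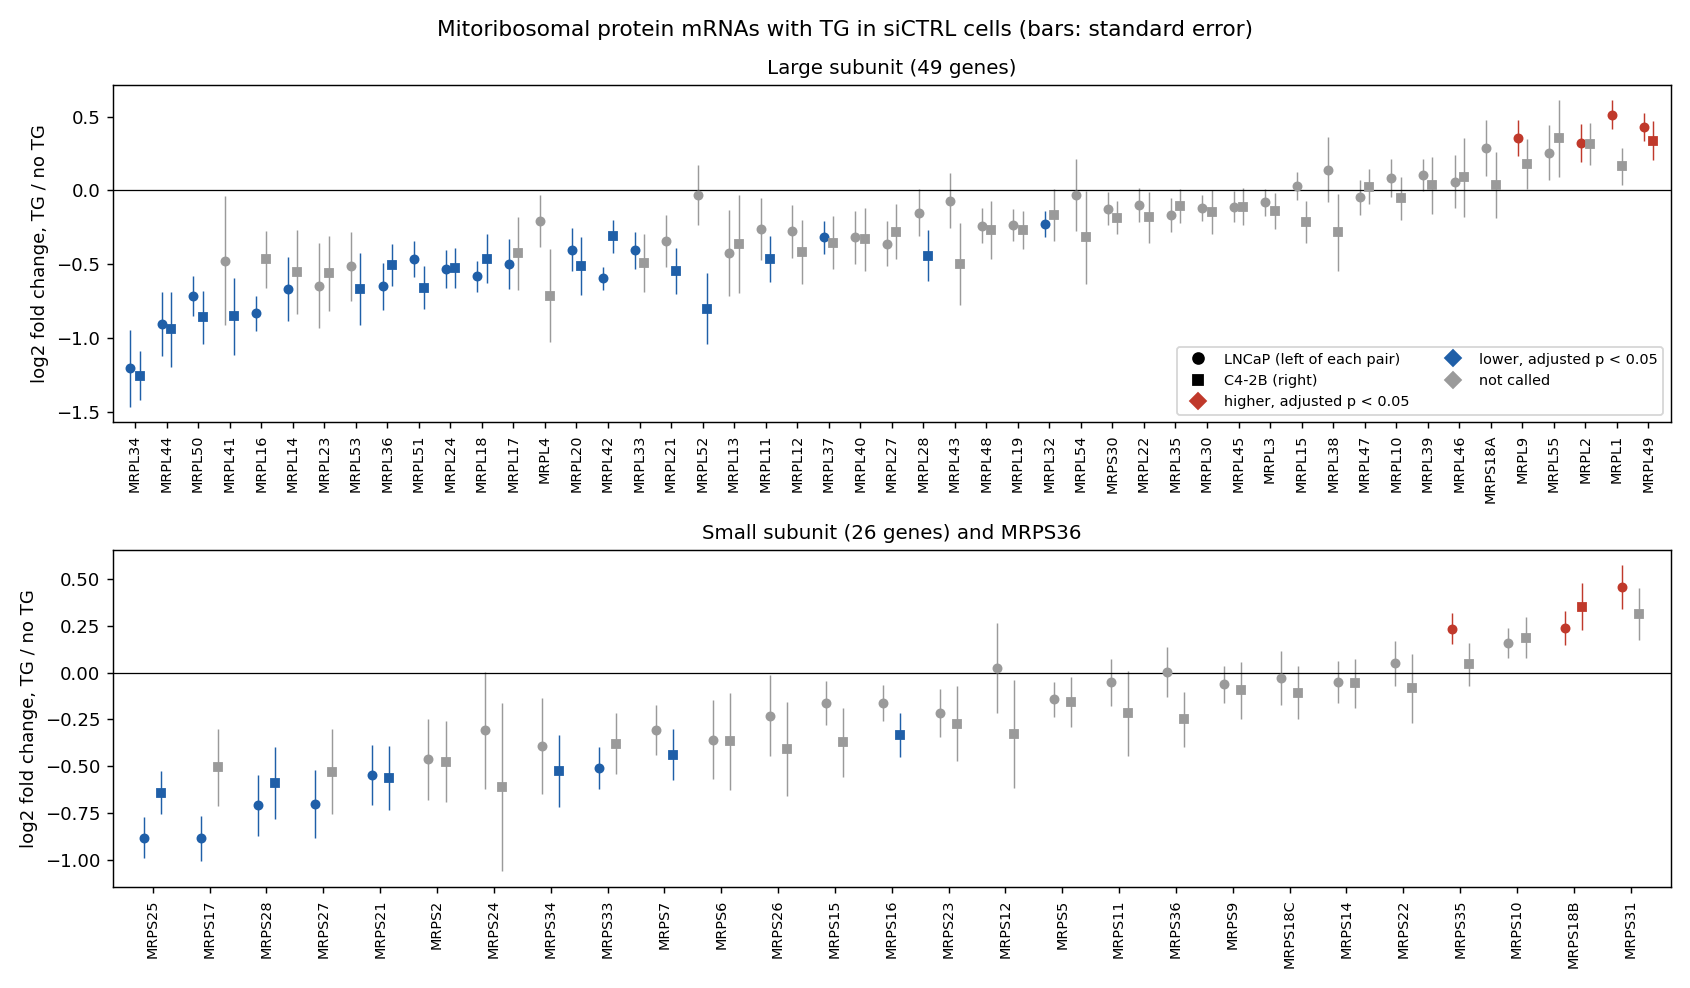
Log2 fold change with TG in siCTRL cells, with its standard error, of each of the 76 genes, the large subunit above and the small subunit with MRPS36 below, LNCaP as circles and C4-2B as squares. Colours mark the calls. Most points lie below 0, MRPL34 lies lowest in both lines, and a few genes such as MRPL49 and MRPS18B lie above 0.

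Length of transcript moved with some libraries. The median transcript of these genes is 1137 bases long, against 2521 bases over all genes. In the 3 libraries that leaned most toward long transcripts, the median deviation of the 76 genes from the mean of their group was −0.184 in LNCaP siCTRL TG library 4, −0.271 in C4-2B siCTRL TG library 3 and −0.278 in C4-2B siCTRL library 2. With those libraries left out, a choice made after seeing the data, no gene was called higher with TG in C4-2B. With length and GC content corrected for in every library, 30 genes were lower and 4 higher there. The shares of all genes called in those fits are not given here.

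The calls were counted by subunit, and the difference between the subunits was not tested. In the large subunit, 15 of 49 genes (30.6%) were lower with TG in LNCaP and 15 in C4-2B, while 4 and 1 were higher. In the small subunit, 6 of 26 (23.1%) were lower in each line, and 3 in LNCaP and 1 in C4-2B were higher. Between the lines, which share no libraries, 12 genes were lower in both, 57.1% of the lower genes of each line. Over all genes tested in both, the shared genes were 63.4% of those lower in LNCaP and 81.9% of those lower in C4-2B. These 12 were MRPL18, MRPL20, MRPL24, MRPL34, MRPL36, MRPL42, MRPL44, MRPL50, MRPL51, MRPS21, MRPS25 and MRPS28. MRPL49 and MRPS18B were higher in both lines, 28.6% of the genes higher in LNCaP and 100% of those higher in C4-2B, against 71.0% and 80.6% over all genes. No gene was called in opposite directions.

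MRPL34 (chr19:17292609-17306843, plus strand, GENCODE 29 on GRCh38) encodes a small large-subunit protein conserved from bacteria, and fell furthest in both lines. In LNCaP it had 4.53, 6.94, 3.96 and 2.52 CPM in siCTRL cells with TG, against 11.8, 7.86, 6.98 and 14.7 CPM without TG. In C4-2B it had 5.99, 8.32, 9.45 and 6.34 CPM with TG, against 18.9, 15.4, 18.7 and 18.8 CPM without. The groups did not overlap in either line, although the gap in LNCaP was narrow. The log2 change was −1.20 (SE 0.26, adjusted p = 0.000874) in LNCaP and −1.25 (SE 0.17, adjusted p = 1.79e-05) in C4-2B. MRPL34 overlaps ABHD8 on the other strand, and the sources used here do not say which strand setting the counting used.

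MRPL44 (chr2:223957404-223967714, plus strand) encodes a large-subunit protein with a fold like that of RNase III, known for its link to inherited cardiomyopathy. In LNCaP it had 18.5, 20.3, 19.6 and 15.3 CPM in siCTRL cells with TG, against 34.2, 35.7, 35.6 and 32.3 CPM without. C4-2B gave 21.3, 20.3, 12.3 and 17.96 CPM with TG, against 37.8, 26.2, 40.2 and 33.7 CPM without. Every TG library lay below every library without TG in its line. The log2 change was −0.91 (SE 0.22, adjusted p = 0.00215) in LNCaP and −0.94 (SE 0.25, adjusted p = 0.00655) in C4-2B.

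MRPL50 (chr9:101387633-101398614, minus strand) encodes a large-subunit protein that bacterial ribosomes lack. LNCaP siCTRL cells had 22.0, 19.4, 22.2 and 20.6 CPM with TG, against 38.6, 31.8, 32.9 and 35.0 CPM without. In C4-2B the values were 20.5, 22.6, 24.6 and 23.0 CPM with TG, against 46.6, 46.9, 35.5 and 35.6 CPM without. The libraries with TG were close together and clear of the others. The change was −0.72 on the log2 scale in LNCaP (SE 0.13, adjusted p = 0.000247) and −0.86 in C4-2B (SE 0.18, adjusted p = 0.00109).

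MRPS25 (chr3:15042460-15065335, minus strand) encodes a small-subunit protein particular to mitochondria. It had 37.6, 34.8, 31.2 and 39.0 CPM in LNCaP siCTRL cells with TG, against 64.3, 59.7, 67.6 and 71.5 CPM without. It had 44.6, 41.6, 44.9 and 45.5 CPM in C4-2B siCTRL cells with TG, against 66.1, 63.7, 66.1 and 79.7 CPM without. Again no library of either side overlapped the other. The log2 change was −0.88 (SE 0.11, adjusted p = 3.1e-06) in LNCaP and −0.64 (SE 0.11, adjusted p = 0.000257) in C4-2B. The calls of MRPL34, MRPL44, MRPL50 and MRPS25 held in both lines without each library in turn.

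**Figure D2:**
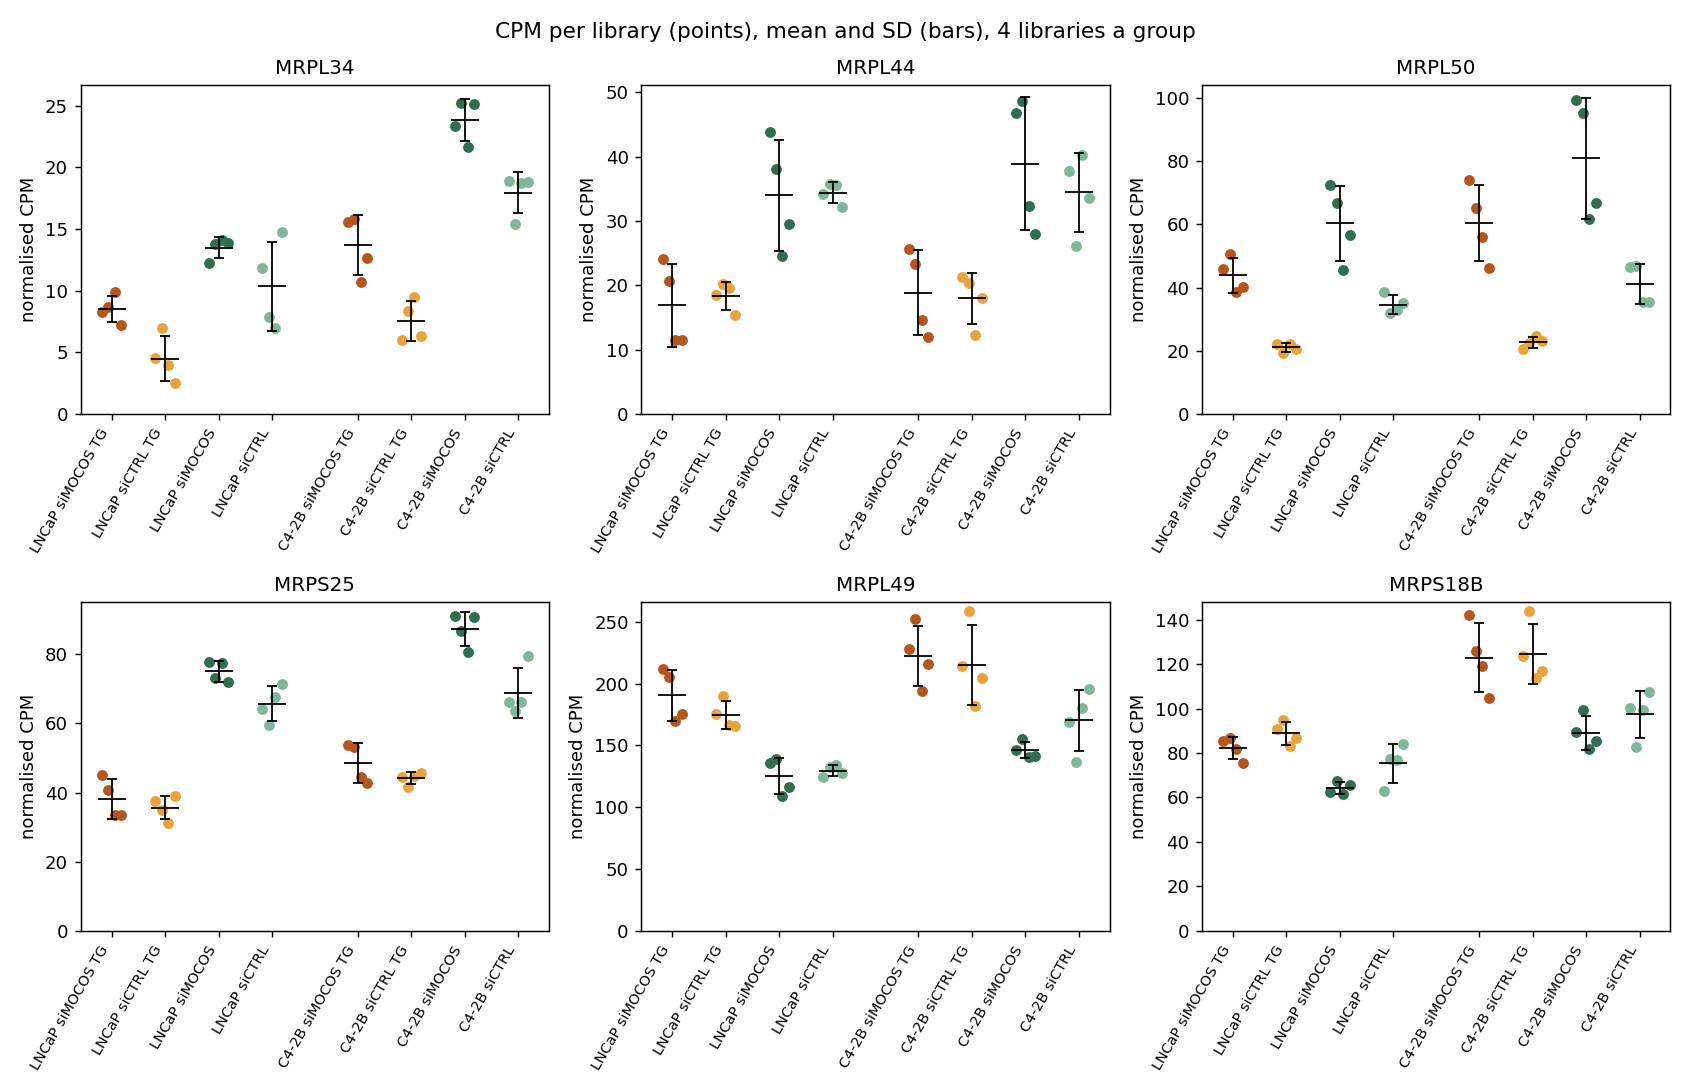
Normalised CPM of MRPL34, MRPL44, MRPL50, MRPS25, MRPL49 and MRPS18B in each library (points) of the 8 groups, with the mean and SD of each group as bars (n = 4). The 4 genes that fell have TG libraries below the libraries without TG in siCTRL cells, and MRPL49 reaches 259 CPM in a TG library.

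MRPL16 and MRPS17 also fell in LNCaP. MRPL16, a protein close to the catalytic centre of the large subunit, had 14.1, 16.8, 14.4 and 15.6 CPM in siCTRL cells with TG, against 23.2, 30.3, 26.9 and 28.1 CPM without. Its change was −0.83 on the log2 scale (SE 0.12, adjusted p = 1.49e-05). MRPS17, a protein that binds small-subunit rRNA, changed by −0.89 (SE 0.12, adjusted p = 8.27e-06), with 12.3, 16.6, 14.1 and 11.8 CPM with TG and 26.8, 26.9, 24.7 and 22.9 CPM without. Neither gene's libraries overlapped in LNCaP. In C4-2B neither passed, with changes of −0.47 (adjusted p = 0.0602) for MRPL16 and −0.51 (adjusted p = 0.0598) for MRPS17, and the lines' difference was not called for either. In siMOCOS cells of C4-2B both were lower with TG, MRPL16 at −0.56 (adjusted p = 0.0276) and MRPS17 at −0.60 (adjusted p = 0.0283), calls lost without siMOCOS TG library 3 or 4 or siMOCOS library 4 (0.0542 to 0.0819), and for MRPS17 also without siMOCOS library 1 or 2 (0.0561 and 0.0535). In LNCaP siMOCOS cells the changes were −0.67 (adjusted p = 0.000164) for MRPL16 and −0.73 (adjusted p = 7.19e-05) for MRPS17. MRPS17 overlaps NIPSNAP2 on the same strand, so the counting could split reads between them. In C4-2B the falls of MRPL52 (−0.80, adjusted p = 0.013) and MRPL41 (−0.85, adjusted p = 0.0152) were lost without siCTRL library 4 (adjusted p = 0.0558 for MRPL52 and 0.0601 for MRPL41), and that of MRPL41 also without siCTRL library 3 (adjusted p = 0.062). MRPL41 (adjusted p = 0.331) and the small-subunit gene MRPS34 (−0.52, adjusted p = 0.0388) were also not called once transcript length and GC content were corrected for, MRPS34 with adjusted p = 0.456. The call of MRPS34 was lost too without C4-2B siCTRL library 3 or 4 or siCTRL TG library 1, 3 or 4, with adjusted p from 0.053 to 0.173. With all 32 libraries in 1 fit, MRPL41 (0.0525) and MRPS34 (0.0718) were not called. Nor were they with the replicate number as a block (0.0722 and 0.0807) or without the 3 libraries that leaned toward long transcripts (0.0581 and 0.0651).

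Against the majority, a few genes rose. MRPL49 (chr11:65122183-65127371, plus strand) encodes a large-subunit protein and is among the most abundant messages of the set. It had 175, 190, 167 and 166 CPM in LNCaP siCTRL cells with TG, against 125, 132, 134 and 128 CPM without. In C4-2B it had 215, 259, 182 and 205 CPM with TG, against 169, 137, 180 and 196 CPM without, and 1 TG library lay below 1 library without TG. The change was 0.43 in LNCaP (SE 0.10, adjusted p = 0.00135) and 0.34 in C4-2B (SE 0.13, adjusted p = 0.0482). The C4-2B call was lost without siCTRL library 1, 2 or 3 or siCTRL TG library 1, 2 or 4, with adjusted p from 0.068 to 0.183, and also with DESeq2 size factors (0.0529), with no filter (0.0847) and without the 3 libraries that leaned toward long transcripts (0.0551). It was lost too in the 8 siCTRL libraries alone (0.059) and with the replicate number as a block (0.144). MRPL49 overlaps FAU and SYVN1 on the other strand.

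The 3 MRPS18 genes are paralogs, and their proteins are known to sit at different places, MRPS18A in the large subunit and MRPS18B and MRPS18C in the small one. MRPS18B (chr6:30617709-30626395, plus strand) had 90.8, 95.1, 83.2 and 86.7 CPM in LNCaP siCTRL cells with TG, against 63.1, 77.3, 77.1 and 84.1 CPM without. In C4-2B it had 124, 144, 114 and 117 CPM with TG, against 100.4, 82.8, 99.2 and 108 CPM without. The libraries overlapped narrowly in LNCaP and not in C4-2B. Its change was 0.24 (SE 0.09, adjusted p = 0.0398) in LNCaP and 0.35 (SE 0.12, adjusted p = 0.0311) in C4-2B. Without LNCaP siCTRL library 1, 2 or 3 the LNCaP call was lost (adjusted p from 0.0624 to 0.157), and without C4-2B siCTRL library 2 or 3 or siCTRL TG library 1 or 2 the C4-2B call was (0.0656 to 0.118). The LNCaP call was lost too with all 32 libraries in 1 fit (0.0699), and the C4-2B call with no filter (0.0559) and without the 3 libraries that leaned toward long transcripts (0.0634). With the replicate number as a block the C4-2B call was also lost (0.0866). MRPS18A and MRPS18C were not called with TG in siCTRL cells, with log2 changes of 0.29 and −0.03 in LNCaP and 0.04 and −0.11 in C4-2B. In siMOCOS cells MRPS18A was higher with TG in LNCaP (0.54, adjusted p = 0.0267) and not called in C4-2B. That LNCaP call was lost without siMOCOS TG library 1 or 2 or siMOCOS library 1, 3 or 4 (0.0527 to 0.13). It was lost too with all 32 libraries in 1 fit (0.0715). The differences between the paralogs were not tested.

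In LNCaP MRPL1 and MRPS31 also rose. MRPL1, a protein of the mobile stalk near the exit site for tRNA, had 64.4, 61.9, 68.9 and 66.3 CPM in siCTRL cells with TG, against 46.2, 46.2, 45.1 and 45.6 CPM without (log2 change 0.51, SE 0.10, adjusted p = 0.000226). MRPS31, a small-subunit protein that bacteria lack, had 15.4, 16.5, 18.4 and 17.0 CPM with TG, against 12.4, 11.6, 12.99 and 11.98 CPM without (0.46, SE 0.12, adjusted p = 0.00329). Neither gene overlapped between its groups. With the replicate number as a block and length and GC corrected for, MRPS31 was not called in LNCaP (0.0547). In C4-2B the same changes were 0.17 (adjusted p = 0.305) for MRPL1 and 0.32 (adjusted p = 0.0784) for MRPS31. In siMOCOS cells both genes were higher with TG in both lines, MRPL1 by 0.52 (adjusted p = 0.000243) in LNCaP and 0.47 (adjusted p = 0.0067) in C4-2B, and MRPS31 by 0.62 (adjusted p = 0.000353) and 0.38 (adjusted p = 0.0381). The C4-2B calls were lost with length and GC corrected for (0.0865 for MRPL1 and 0.296 for MRPS31). That of MRPS31 was lost also with DESeq2 size factors (0.0509), with no filter (0.077), and without siMOCOS TG library 1, 3 or 4 or siMOCOS library 2, 3 or 4 (0.0538 to 0.105). MRPL9, MRPL2 and MRPS35 were also called higher in LNCaP, with log2 changes of 0.36, 0.32 and 0.24. All 3 of these calls were lost without siCTRL library 3 (adjusted p = 0.0815, 0.0728 and 0.0732), that of MRPL2 also without siCTRL library 1 or 4 or siCTRL TG library 2 (0.0614 to 0.154), and that of MRPS35 also without siCTRL library 2 (0.0636). With length and GC corrected for, the change of MRPS35 was 0.04 (adjusted p = 0.616). With all 32 libraries in 1 fit none of the 3 was called (0.0562, 0.0559 and 0.0505).

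The structural groups of the large subunit hold 3 to 6 genes each, too few to set their counts against the 25.1% of all genes lower in LNCaP and 19.3% in C4-2B. MRPL10, MRPL11 and MRPL12 form the stalk that recruits translation factors, and of them only MRPL11 was called with TG, in C4-2B. MRPL11 had 37.9, 35.2, 30.8 and 31.0 CPM with TG in C4-2B siCTRL cells, against 46.6, 42.6, 50.6 and 46.2 CPM without (log2 change −0.46, adjusted p = 0.0241). That call was lost without siCTRL library 3 or 4 or siCTRL TG library 3 or 4 (adjusted p from 0.0603 to 0.0659) and without the 3 libraries that leaned toward long transcripts (0.0571). It was lost too with the replicate number as a block (0.0503). Of 6 proteins around the exit of the peptide tunnel, 2 were lower in LNCaP and 1 in C4-2B, MRPL24 in both. Of 6 in the central protuberance, MRPL18 was lower in both lines, with −0.58 (adjusted p = 0.000164) in LNCaP and −0.46 (adjusted p = 0.0353) in C4-2B. The C4-2B call was lost without siCTRL library 1, 3 or 4 or siCTRL TG library 1 or 3 (0.0637 to 0.14) and with no filter on low counts (0.0507). It was lost too in the 8 siCTRL libraries alone (0.0847) and with the replicate number as a block (0.141). MRPS30, a large-subunit protein in spite of its symbol, changed by −0.12 in LNCaP (adjusted p = 0.372) and −0.18 in C4-2B (adjusted p = 0.188), and MRPS36 by 0.00 and −0.25, none of them called. In all, 39 genes (51.3%) were not called with TG in siCTRL cells of either line, against 42.5% of the 13458 genes tested in both lines.

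The genes of related machinery were set beside them. With TG in siCTRL cells, 71 of 79 cytosolic ribosomal protein genes were lower in LNCaP and 63 in C4-2B and none was higher, with medians of −0.647 and −0.718. Of 75 nuclear genes for oxidative phosphorylation subunits, 45 were lower in LNCaP and 48 in C4-2B and none was higher, with medians of −0.462 and −0.674. Whether these lists differ from the mitoribosomal genes was not tested. For these and the lists that follow, the shares over all genes were 25.1% lower and 24.6% higher in LNCaP. In C4-2B they were 19.3% and 21.2%. Of 27 genes for assembly of the mitoribosome and modification of its rRNA, 9 were lower and 5 higher in LNCaP, and 7 lower and 3 higher in C4-2B. Within that list NSUN4, an rRNA methyltransferase, was higher, with 0.52 (adjusted p = 9.98e-05) in LNCaP and 0.73 (adjusted p = 4.05e-05) in C4-2B, while TRUB2, a pseudouridine synthase, was lower, with −0.89 (adjusted p = 0.000154) in LNCaP and −0.94 (adjusted p = 0.000209) in C4-2B. FTSJ2, the rRNA methyltransferase MRM2, was lower in both lines, with −0.73 (adjusted p = 3.97e-05) in LNCaP and −0.34 (adjusted p = 0.0178) in C4-2B.

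**Figure D3:**
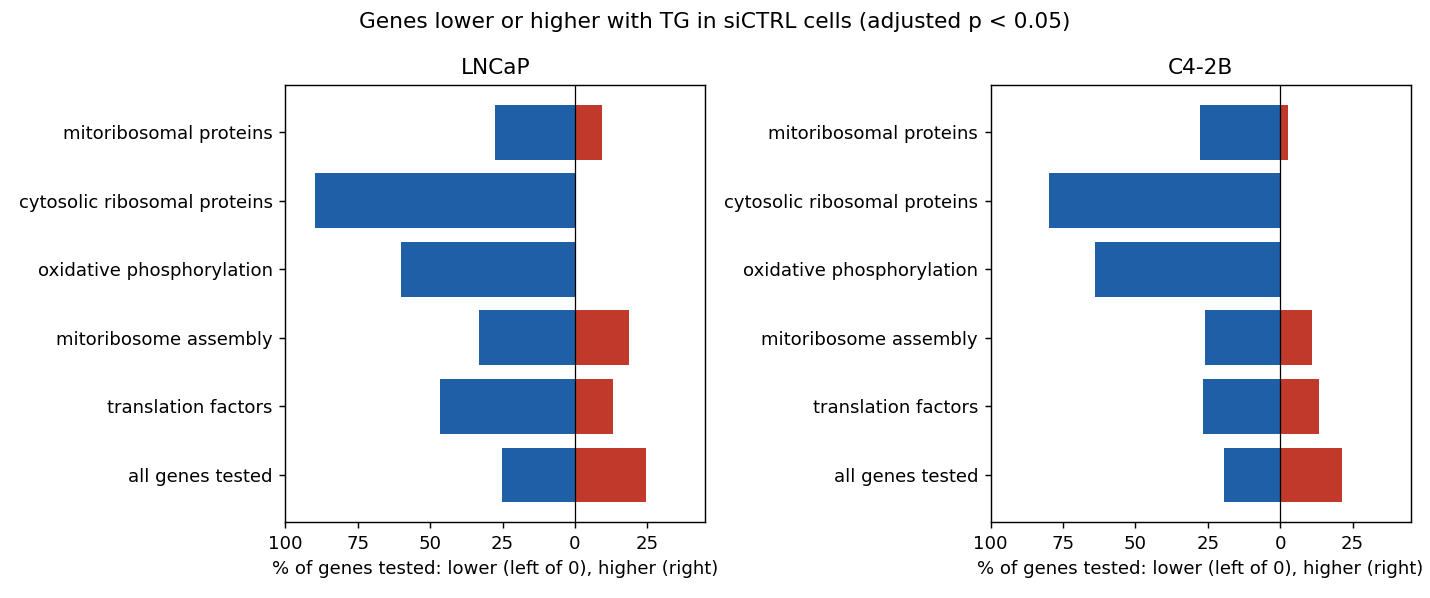
Percent of the tested genes of each list called lower (bars left of 0) or higher (bars right of 0) with TG in siCTRL cells of LNCaP and C4-2B, beside all genes tested. For the mitoribosomal genes the lower bar is at 27.6% in both lines, and the cytosolic ribosomal protein and oxidative phosphorylation genes have no bar to the right.

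Translation factors and regulators moved in both directions. Of 15 genes for mitochondrial translation factors and membrane insertion, 7 were lower and 2 higher in LNCaP, and 4 lower and 2 higher in C4-2B. OXA1L, which inserts the nascent proteins into the inner membrane, was lower in both lines, with −0.76 (adjusted p = 0.000101) in LNCaP and −0.71 (adjusted p = 0.000393) in C4-2B. GFM2, a factor of ribosome recycling, was at −0.61 (adjusted p = 9.12e-05) in LNCaP and −0.35 (adjusted p = 0.0744, not called) in C4-2B. TSFM, the exchange factor of mitochondrial elongation factor Tu, was lower in both, with −0.79 (adjusted p = 0.000135) in LNCaP and −1.01 (adjusted p = 4.58e-05) in C4-2B. Of 14 regulators, 6 were lower and 2 higher in each line. NRF1, the transcription factor whose letters were searched above, had 117, 113, 105 and 115 CPM in LNCaP siCTRL cells with TG, against 18.4, 18.5, 21.0 and 25.4 CPM without. The log2 change of NRF1 was 2.44 (adjusted p = 1.88e-09) in LNCaP and 1.33 (adjusted p = 6.06e-07) in C4-2B. MYC, a transcription factor of growth, was lower in both lines, with −2.62 (adjusted p = 7.72e-10) in LNCaP and −2.10 (adjusted p = 0.000143) in C4-2B. PPARGC1B, a coactivator of mitochondrial genes, was at −2.32 in both (adjusted p = 9.71e-09 in LNCaP and 5.02e-08 in C4-2B).

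A further 5 mitoribosomal proteins carry other symbols. Of DAP3, PTCD3, AURKAIP1, CHCHD1 and GADD45GIP1, 2 were lower with TG in LNCaP and 1 in C4-2B. PTCD3 (MRPS39), a small-subunit protein with pentatricopeptide repeats, changed by −0.65 (adjusted p = 1.11e-05) in LNCaP and −0.53 (adjusted p = 0.00244) in C4-2B, and CHCHD1 by −0.90 (adjusted p = 0.00365) in LNCaP and −0.69 (adjusted p = 0.0682, not called) in C4-2B. Of a pair listed under older symbols, ICT1 (MRPL58), the peptidyl-tRNA hydrolase of the large subunit, was higher in LNCaP (0.41, adjusted p = 0.00989) and not called in C4-2B (0.12, adjusted p = 0.699), and MRP63 (MRPL57) was called in neither line.

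The same TG comparison was made in siMOCOS cells, in libraries that the siCTRL comparison did not use. In LNCaP 15 genes were lower and 10 higher with TG, with 21.9% and 25.1% of all genes called in those directions and a median of −0.135. In C4-2B 14 were lower and 5 higher, with 17.2% and 20.7% of all genes called and a median of −0.217. The lower count in C4-2B was 9 without siMOCOS TG library 3 or 4 or siMOCOS library 4, and the higher count 3 without siMOCOS TG library 1 or 3 or siMOCOS library 2, 3 or 4. Of the 21 genes lower in siCTRL cells, 15 (71.4%) were also lower in siMOCOS cells in LNCaP, and 11 (52.4%) in C4-2B. Over all genes the same shares were 73.5% and 68.9%. Of the genes lower in siMOCOS cells those shared were 100% in LNCaP and 78.6% in C4-2B, against 84.3% and 77.2% over all genes. All of the 7 and 2 genes higher in siCTRL cells of LNCaP and C4-2B were higher in siMOCOS cells, where over all genes 82.9% and 75.5% were. They were 70% and 40% of the genes higher in siMOCOS cells, against 81.3% and 77.4% over all genes.

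In all 4 settings of line and siRNA, 8 genes were lower with TG, namely MRPL20, MRPL24, MRPL34, MRPL36, MRPL44, MRPL51, MRPS21 and MRPS25. They are 10.5% of the 76 genes, against 11.2% of all genes tested in both lines. MRPL49 and MRPS18B were higher in all 4, which is 2.63% of the 76 genes, against 13.7% over all genes. MRPL49 had 212, 205, 170.0 and 175 CPM in LNCaP siMOCOS cells with TG, against 136, 139, 109 and 117 CPM without (0.60, SE 0.10, adjusted p = 6.23e-05). In C4-2B siMOCOS cells it had 228, 252, 194 and 216 CPM with TG, against 146, 155, 141 and 142 CPM without (0.61, SE 0.13, adjusted p = 0.00146). No library of either side overlapped there. MRPS18B changed by 0.36 (adjusted p = 0.00436) in LNCaP siMOCOS cells and 0.47 (adjusted p = 0.00685) in C4-2B siMOCOS cells. MRPS25 changed by −0.98 (adjusted p = 1e-06) and −0.85 (adjusted p = 1.7e-05), MRPL44 by −1.01 (adjusted p = 0.000921) and −1.05 (adjusted p = 0.00324), in LNCaP and C4-2B in that order. MRPL34 changed by −0.66 (adjusted p = 0.0355) in LNCaP, a call lost without siMOCOS TG library 4 or siMOCOS library 2, 3 or 4 (adjusted p from 0.0626 to 0.0692), and by −0.80 (adjusted p = 0.000974) in C4-2B. With length and GC corrected for, MRPL34 was called in neither line's siMOCOS cells (0.0795 and 0.19).

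MOCOS knockdown without TG was compared next. In LNCaP 1 gene was higher and 10 lower in siMOCOS cells, with 6% and 9.73% of all genes called in those directions, and the median log2 change was −0.051 against −0.022 over all genes. In C4-2B 2 were higher and 3 lower, with 9.09% and 8.14% of all genes called, and the median was −0.129 against 0.003. In LNCaP 1.32% of the 76 genes were higher, below the background, and 13.2% lower, above it. In C4-2B 2.63% were higher and 3.95% lower, both below it. Between the lines, MRPL50 was higher in both, 100% of the LNCaP and 50% of the C4-2B genes called higher, against 49.1% and 32.1% over all genes. MRPL35 was lower in both, 10% of the LNCaP and 33.3% of the C4-2B genes called lower, against 51.4% and 61.3% over all genes. These knockdown comparisons share the siCTRL libraries with those of TG in siCTRL cells. In LNCaP the lower count was 6 without siCTRL library 4 and 5 without siMOCOS library 2, and the higher count 3 without siCTRL library 2 and 2 without siMOCOS library 1. In C4-2B the lower count was 0 without siCTRL library 3 or siMOCOS library 2 and 1 without siCTRL library 4 or siMOCOS library 1, and the higher count was 1 without siCTRL library 1, 2 or 3 or siMOCOS library 1, 2 or 4.

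With TG, knockdown raised 8 genes and lowered 5 in LNCaP, with 11.7% and 10.2% of all genes called and a median of 0.018. In C4-2B 4 were higher and 3 lower, with 9.21% and 7.6% of all genes called and a median of −0.018. These comparisons share the siCTRL TG libraries with those of TG in siCTRL cells, so that low values there bear on both. The LNCaP higher count was 4 without siCTRL TG library 1 or siMOCOS TG library 2, 3 without siCTRL TG library 3 or siMOCOS TG library 1, and 2 without siCTRL TG library 4. The LNCaP lower count was 2 without siCTRL TG library 3, 3 without siMOCOS TG library 2 and 9 without siMOCOS TG library 3. In C4-2B the higher count was 2 without siCTRL TG library 1 or 3 or siMOCOS TG library 1. Between the lines, MRPL18, MRPL34 and MRPL50 were higher in both, 37.5% of the LNCaP and 75% of the C4-2B genes called higher, against 32.6% and 41.1% over all genes. MRPL35 was lower in both, 20% of the LNCaP and 33.3% of the C4-2B genes called lower, against 46.3% and 61.4% over all genes.

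MRPL50 was the 1 gene higher with knockdown in all 4 settings. The shares of all genes higher or lower with knockdown in all 4 were not counted. In LNCaP MRPL50 had 45.8, 50.6, 38.7 and 40.2 CPM in siMOCOS cells with TG, against 22.0, 19.4, 22.2 and 20.6 CPM in siCTRL cells with TG (1.06, SE 0.13, adjusted p = 2.8e-05). Without TG it had 72.3, 66.9, 45.5 and 56.6 CPM in siMOCOS cells, against 38.6, 31.8, 32.9 and 35.0 CPM in siCTRL cells (0.81, SE 0.13, adjusted p = 0.00047). Every knockdown library in LNCaP lay above every control library. In C4-2B it had 74.1, 65.2, 56.0 and 46.2 CPM in siMOCOS cells with TG, against 20.5, 22.6, 24.6 and 23.0 CPM in siCTRL cells with TG (1.41, SE 0.18, adjusted p = 2.42e-05). Without TG the C4-2B values were 99.4, 95.4, 61.8 and 66.9 CPM in siMOCOS cells, against 46.6, 46.9, 35.5 and 35.6 CPM in siCTRL cells (0.98, SE 0.18, adjusted p = 0.000888). Again no library overlapped, and the first 2 knockdown columns were the highest in each line and drug. TG in siMOCOS cells changed MRPL50 by −0.46 in LNCaP (adjusted p = 0.00721) and by −0.42 in C4-2B (adjusted p = 0.0666, not called).

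MRPL35 (chr2:86199355-86213794, plus strand), a large-subunit protein conserved from bacteria, was lower with knockdown in all 4 settings. LNCaP had 31.0, 33, 37.5 and 33.7 CPM in siMOCOS cells with TG, against 46.9, 47.5, 50.3 and 53.9 CPM in siCTRL cells with TG (−0.56, SE 0.11, adjusted p = 0.00236). Without TG it had 41.1, 34.2, 34.8 and 46.0 CPM in siMOCOS cells, against 56.5, 53.8, 47.9 and 64.6 CPM in siCTRL cells (−0.52, SE 0.12, adjusted p = 0.00551). The sides did not overlap. In C4-2B the changes were −0.50 with TG (SE 0.12, adjusted p = 0.00629) and −0.38 without (SE 0.12, adjusted p = 0.0326). The C4-2B call without TG was lost without any 1 of siCTRL libraries 1, 3 and 4 or of siMOCOS libraries 1 to 4, with adjusted p from 0.0552 to 0.0924, and with no filter (0.0587).

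**Figure D4:**
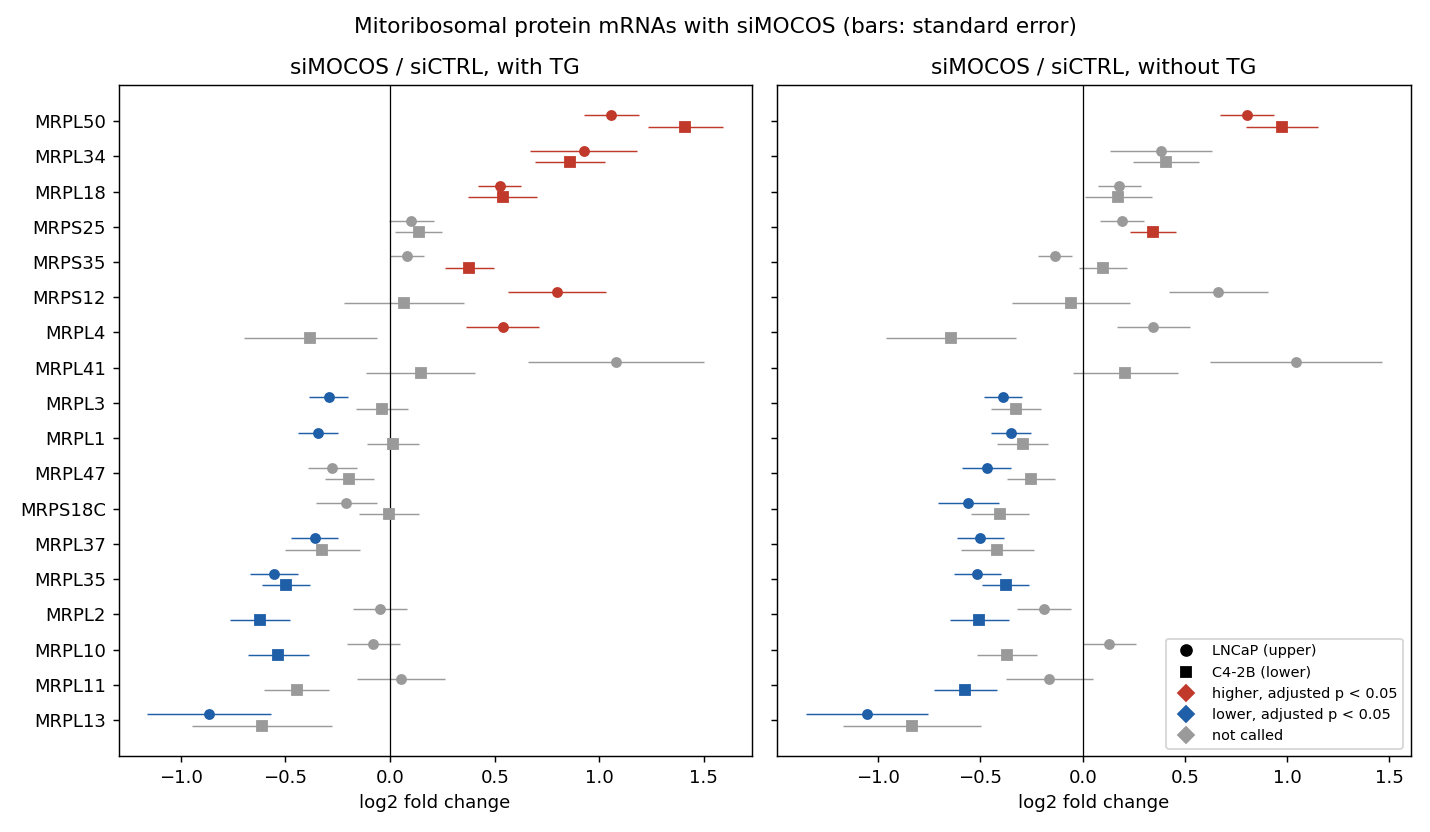
Log2 fold change, siMOCOS over siCTRL, with its standard error for named mitoribosomal genes, with TG on the left and without TG on the right, LNCaP as circles and C4-2B as squares, and colours for the calls. MRPL50 lies right of 0 and MRPL35 left of 0 in every setting, and MRPL34 and MRPL18 are called higher with TG in both lines.

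MRPL34 was higher with knockdown under TG. In LNCaP it had 8.26, 8.69, 9.84 and 7.23 CPM in siMOCOS cells with TG, against 4.53, 6.94, 3.96 and 2.52 CPM in siCTRL cells with TG (0.92, SE 0.26, adjusted p = 0.0164). In C4-2B it had 15.6, 15.8, 10.7 and 12.6 CPM, against 5.99, 8.32, 9.45 and 6.34 CPM (0.86, SE 0.17, adjusted p = 0.0015). The groups did not overlap. The LNCaP call was lost without siCTRL TG library 3 (adjusted p = 0.0565) or 4 (adjusted p = 0.0598) and with length and GC corrected for (adjusted p = 0.239). The same siCTRL TG libraries gave the falls of MRPL34, MRPL18 and MRPL50 with TG, and the rises with knockdown are not independent of those falls. Without TG the change was 0.38 in LNCaP (adjusted p = 0.31) and 0.41 in C4-2B (adjusted p = 0.0973), neither called. MRPL18, a protein of the central protuberance, was higher with knockdown under TG by 0.52 in LNCaP (SE 0.10, adjusted p = 0.00172) and by 0.54 in C4-2B (SE 0.17, adjusted p = 0.0326), the C4-2B call being lost without siCTRL TG library 1 or 3 or siMOCOS TG library 1 or 2 (0.0656 to 0.109) and with no filter (0.0555).

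Some knockdown changes were called in 1 line. In LNCaP MRPL37, a large-subunit protein that bacteria lack, had 121, 111, 103 and 95.8 CPM in siMOCOS cells without TG, against 136, 162, 144 and 169 CPM in siCTRL cells (−0.50, SE 0.11, adjusted p = 0.00619). MRPL3, which lies near the catalytic centre, changed by −0.39 (adjusted p = 0.00788), and MRPL1 by −0.35 (adjusted p = 0.0204), a call lost without siMOCOS library 2 or 3 (adjusted p = 0.0796 and 0.0549), with no filter (0.0678) and with all 32 libraries in 1 fit (0.0504). With length and GC corrected for, the change of MRPL1 was −0.18 (adjusted p = 0.15). With TG in LNCaP, MRPL1 changed by −0.35 (adjusted p = 0.0152) and MRPL3 by −0.29 (adjusted p = 0.0296). Both of these calls were lost with length and GC corrected for (0.109 and 0.138). That of MRPL3 was lost also without siCTRL TG library 3 (0.0538) or siMOCOS TG library 2 (0.0542). Without TG again, other genes were lower in LNCaP. MRPL47, at the exit of the tunnel, changed by −0.47 (adjusted p = 0.0124) and MRPS18C by −0.56 (adjusted p = 0.0163), both lost without siCTRL library 4 (0.0507 and 0.0609) or siMOCOS library 2 (0.0508 and 0.0593), and that of MRPL47 with length and GC corrected for (0.0546). In C4-2B MRPL2, at the catalytic centre, changed by −0.62 with TG (SE 0.14, adjusted p = 0.00585), with 39.3, 44.99, 37.0 and 41.2 CPM in siMOCOS cells with TG, against 69.2, 69.4, 53.9 and 57.6 CPM in siCTRL cells with TG. The stalk gene MRPL11 changed by −0.57 without TG in C4-2B (adjusted p = 0.0159), a call lost without siCTRL library 3 (adjusted p = 0.0531) or siMOCOS library 2 (adjusted p = 0.0553). MRPL10 changed by −0.53 with TG (adjusted p = 0.0182), a call lost without siCTRL TG library 2 (adjusted p = 0.0706) or siMOCOS TG library 1 (adjusted p = 0.0593). MRPS12, a protein of the decoding centre, was higher with TG in LNCaP (0.80, adjusted p = 0.0227), which was lost without any 1 of siCTRL TG libraries 1, 3 and 4 and siMOCOS TG libraries 1 and 2 (0.0559 to 0.107). It was lost too with length and GC corrected for, where the change was 0.43 (adjusted p = 0.0777), and with all 32 libraries in 1 fit (0.78, adjusted p = 0.0567). MRPL4 was higher with TG in LNCaP (0.54, adjusted p = 0.0347), MRPS35 with TG in C4-2B (0.38, adjusted p = 0.033) and MRPS25 without TG in C4-2B (0.34, adjusted p = 0.0443). On leaving out 1 library, these calls were lost for 6, 5 and 6 of 8 libraries. That of MRPL4 was lost also with length and GC corrected for (0.964) and with all 32 libraries in 1 fit (0.192). Those of MRPS35 and MRPS25 were lost also with no filter (0.07 and 0.119) and without the 3 libraries that leaned toward long transcripts (0.068 and 0.0918).

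MRPL13, a large-subunit protein conserved from bacteria, split the knockdown columns. LNCaP had 15.8, 13.9, 29.7 and 32.1 CPM in siMOCOS cells with TG, against 40.5, 40.0, 43.1 and 42.6 CPM in siCTRL cells with TG. Without TG it had 17.9, 13.4, 37.1 and 40.7 CPM in siMOCOS cells, against 53.9, 51.2, 53.4 and 64.9 CPM in siCTRL cells. The first 2 columns were the lowest in each case, and in C4-2B without TG they had 17.3 and 17.1 CPM, against 43.5 and 43.3 CPM in the last 2. The pooled change in LNCaP was −0.87 with TG (SE 0.29, adjusted p = 0.0432) and −1.05 without (SE 0.30, adjusted p = 0.0233). Both calls were lost when 1 of the first 2 knockdown columns was left out, with adjusted p = 0.109 and 0.105 with TG and 0.0642 and 0.0733 without. They were lost as well without siCTRL TG library 1, 3 or 4 with TG (0.0617 to 0.0759) and without siCTRL library 4 without TG (0.0675). The call with TG was lost also with length and GC corrected for (0.082) and with all 32 libraries in 1 fit (0.0703). MRPL44 split the other way, with 43.9, 38.1, 24.6 and 29.5 CPM in LNCaP siMOCOS cells without TG.

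Among the related genes, knockdown without TG lowered 1 of 27 assembly genes in each line, FTSJ2 in LNCaP (−0.37, adjusted p = 0.0372, against −0.30 and 0.0622 in C4-2B) and RPUSD4, another pseudouridine synthase, in C4-2B (−0.60, adjusted p = 0.0181, against −0.04 and 0.898 in LNCaP). Of the 15 translation factors, 3 were lower in LNCaP and none in C4-2B, with MTIF2, an initiation factor, at −0.44 (adjusted p = 0.00388) and LRPPRC, which stabilises mitochondrial messages, at −0.42 (adjusted p = 0.0079) in LNCaP, and at −0.29 (adjusted p = 0.251) and −0.19 (adjusted p = 0.311) in C4-2B. NRF1 and the coactivator PPRC1 were the 2 of 14 regulators that were lower in each line, NRF1 at −0.54 in LNCaP (adjusted p = 0.0347) and −0.60 in C4-2B (adjusted p = 0.0033). Cytosolic ribosomal proteins gave 3 lower of 79 in LNCaP and 1 in C4-2B, and none higher. Over all genes 9.73% were lower and 6% higher in LNCaP, and 8.14% and 9.09% in C4-2B. Beside those shares, 3.7% of the assembly genes were lower in each line, and 3.8% and 1.27% of the cytosolic ribosomal protein genes. Of the translation factors 20% were lower in LNCaP and 0% in C4-2B, and of the regulators 14.3% in each line. These differences were not tested. PTCD3 was lower in LNCaP (−0.47, adjusted p = 0.00186) and not called in C4-2B (−0.29, adjusted p = 0.115).

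The difference between the knockdown effect with and without TG, tested as an interaction, was called by edgeR for 0 of the 76 genes in either line. DESeq2 also called 0. Over all genes edgeR called 0.00724% in LNCaP and 0.0708% in C4-2B at the same adjusted p. At an unadjusted p under 0.05, to which those shares do not apply, there were 2 of the 76 genes in LNCaP and 0 in C4-2B. Over all genes, 982 of 14127 had such a p in C4-2B, and the LNCaP count was not set beside all genes. The interaction was above 0 for 59 genes in LNCaP and 55 in C4-2B, with medians of 0.107 and 0.077, against 0.049 and 0.025 over all genes. Over all genes in C4-2B it was above 0 for 7603 of 14127. For MRPL34 it was 0.54 (SE 0.36, adjusted p = 0.86) in LNCaP and 0.45 (SE 0.23, adjusted p = 0.781) in C4-2B. The knockdown effect on MRPL34 is thus not shown to differ between cells with and without TG. Of the 76 genes, 25 (32.9%) were called in none of the 8 comparisons of TG or knockdown within a line, among them MRPL12, MRPL45 and MRPS30, against 23.4% of the genes tested in both lines.

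The lines differed in level without TG or MOCOS knockdown. In siCTRL cells without TG, 5 of the 76 genes were higher and 24 lower in LNCaP than in C4-2B, where 21.1% and 20.1% of 14628 genes were called in those directions. The median log2 difference was −0.256, against 0.001 over all genes. Of the large-subunit genes 3 were higher and 18 lower, and of the small-subunit genes 2 higher and 5 lower. Without C4-2B siCTRL library 4 the lower count was 15, and without C4-2B siCTRL library 2 or 3 the higher count was 3. Without the 3 libraries that leaned most toward long transcripts, 41 were lower and 3 higher. The shares of all genes called in these reduced fits are not given here. With length and GC corrected for, MRPL12, MRPL34, MRPL41, MRPS18A and MRPS34 were no longer called lower in LNCaP. MRPL2, MRPL3, MRPL4, MRPL10, MRPL11, MRPL47 and MRPS12 still were.

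All 3 stalk genes were lower in LNCaP. MRPL10 had 26.3, 31.9, 26.4 and 24.9 CPM in LNCaP, against 42.6, 40.1, 50.8 and 54.5 CPM in C4-2B (log2 difference −0.64, adjusted p = 0.000397). MRPL11 had 22.3, 24.7, 21.4 and 30.0 CPM in LNCaP, against 46.6, 42.6, 50.6 and 46.2 CPM in C4-2B (−0.78, adjusted p = 0.00159). MRPL12 had 16.6, 23.3, 17.9 and 17.8 CPM in LNCaP, against 24.1, 30.2, 35.2 and 41.0 CPM in C4-2B (−0.64, adjusted p = 0.0122). None of these overlapped between the lines. The call of MRPL12 was lost without C4-2B siCTRL library 4 (adjusted p = 0.0611) and with length and GC corrected for (adjusted p = 0.796).

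MRPS12 of the decoding centre differed most, with 13.4, 14.7, 12.6 and 9.87 CPM in LNCaP, against 35.7, 17.5, 44.2 and 46.6 CPM in C4-2B (−1.36, SE 0.28, adjusted p = 0.000297). MRPL41, a large-subunit protein that bacteria lack, was at −1.25 (SE 0.37, adjusted p = 0.00708) and MRPL4, near the wall of the exit tunnel, at −1.16 (SE 0.27, adjusted p = 0.00102). MRPS34, of the small subunit, was at −0.82 (SE 0.24, adjusted p = 0.00636). With length and GC corrected for, MRPL41 (adjusted p = 0.365), MRPS34 (adjusted p = 0.204) and MRPS18A (−0.60, adjusted p = 0.0273, against 0.121 corrected) were no longer called. The call of MRPS18A was lost as well without C4-2B siCTRL library 3 or 4 or LNCaP siCTRL library 1 or 4 (0.0661 to 0.116). MRPL18 and MRPL30, both of the large subunit, were higher in LNCaP, each by 0.57 (SE 0.14, adjusted p = 0.00126 for MRPL18 and SE 0.13, adjusted p = 0.000512 for MRPL30). MRPL30 had 130.2, 119.7, 115 and 121 CPM in LNCaP, against 105, 97.0, 79.2 and 79.8 CPM in C4-2B. MRPL32 was higher by 0.50 (adjusted p = 0.00535). MRPS17 was higher by 0.46 (adjusted p = 0.0288), a call lost with no filter (0.073) and with length and GC corrected for (0.0639). It was lost as well without C4-2B siCTRL library 2 or 3 or LNCaP siCTRL library 1 or 2 (0.0656 to 0.139). Without the 3 libraries that leaned toward long transcripts it was also lost (0.157).

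**Figure D5:**
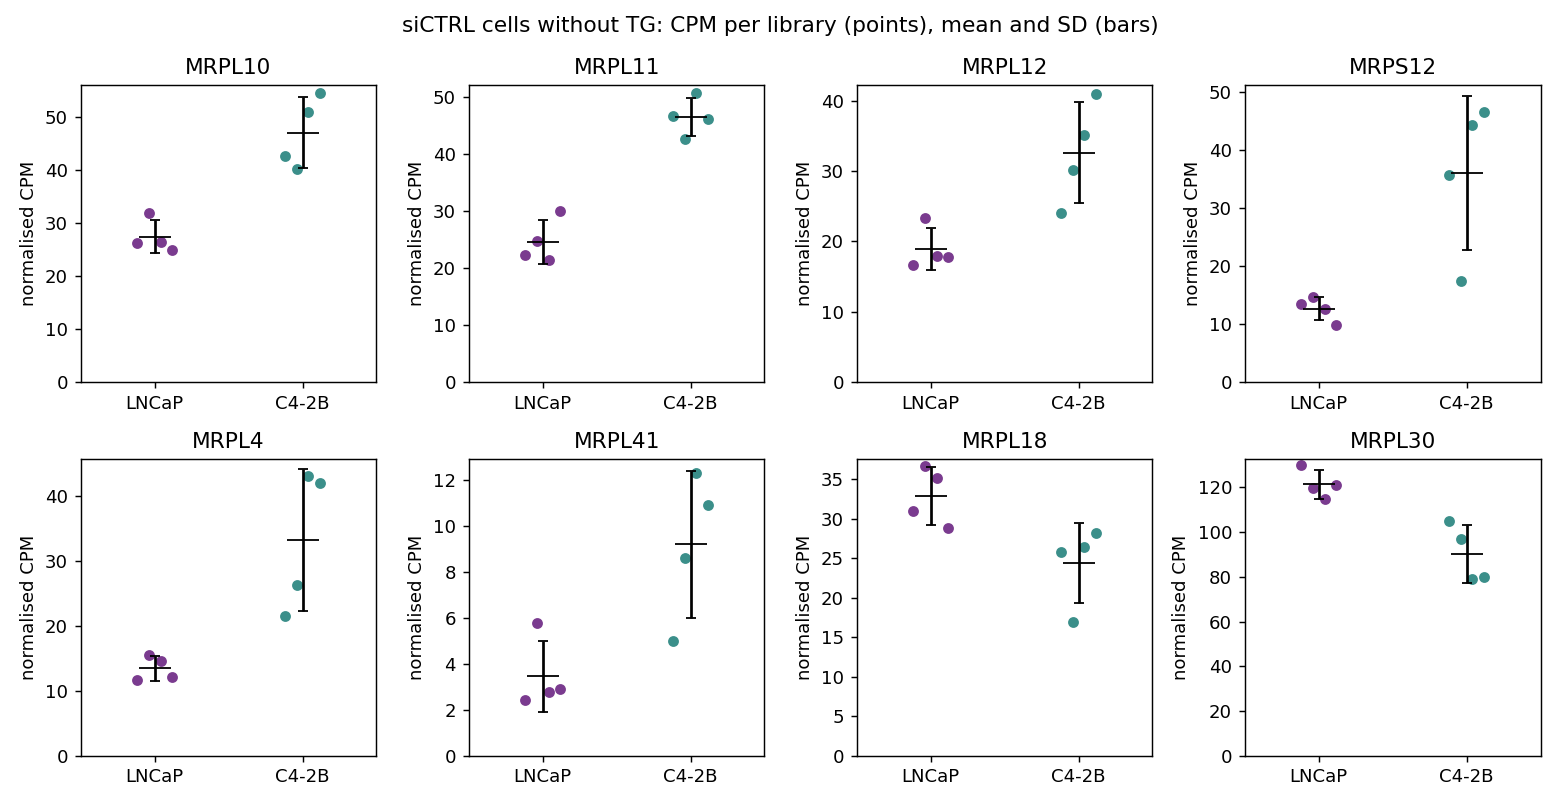
Levels in CPM of mitoribosomal genes that differed between the lines in siCTRL cells without TG, with libraries as points and the mean and SD of each line as bars (n = 4). The stalk genes MRPL10, MRPL11 and MRPL12 lie lower and MRPL30 higher in LNCaP.

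Of the related lists, 30 of 79 cytosolic ribosomal protein genes were higher in LNCaP and 2 lower, whereas 2 of 75 oxidative phosphorylation genes were higher and 27 lower. Over all genes 21.1% were higher and 20.1% lower. For these 76 genes no difference in response was called. For LNCaP minus C4-2B, edgeR called 0 of the 76 genes for the TG response in siCTRL cells, 0 for the knockdown response without TG and 0 for that with TG, and DESeq2 also called 0. Over all genes edgeR called 0.848%, 0.157% and 0.431% in the same order, at the same adjusted p. At an unadjusted p under 0.05, a looser threshold to which those shares do not apply, there were 3, 8 and 12 of the 76 genes. These counts were not set beside all genes. A gene called in 1 line only is therefore not shown to differ between the lines.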

How the data were processed

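The authors deposited 1 table of expected counts, estimated and length-scaled, for 29744 genes in 32 libraries, and did not divide them by library size. Per the submitters' processing notes, STAR 2.6.1d and Salmon 1.5.2 were used with hg38, besides FastQC 0.11.9, cutadapt 3.4 and Trim Galore 0.6.7. The sources used here give neither the gene annotation nor the strand setting of counting.

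Counts were rounded and fitted per line (16 libraries, 12 residual degrees of freedom) with edgeR 4.0.16 under R 4.3.3: filterByExpr by group, TMM factors, quasi-likelihood test, Benjamini-Hochberg adjustment over all genes tested, calls at 0.05. Line differences were tested in a joint fit of 32 libraries (24 residual degrees of freedom). CPM carry the TMM factors. Totals were 7.51 to 27.1 M counts per library, which limits the precision of the genes under about 5 CPM. The series calls the replicates biological. The p-values treat libraries of 2 siRNAs as replicates.

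The members and gene lists were chosen with earlier results of these data known. Genes were named by rule: per comparison within a line the 4 greatest rises and 4 greatest falls among called genes that averaged 5 CPM or more and whose libraries did not overlap, up to 4 each way between lines, genes called against the majority in both lines, and the stalk, MRPS18 and a few other fixed genes. Of the other lists the 2 called genes with the smallest adjusted p were named. The remaining names were chosen after their values were seen. Not every gene that the rule picked is described for every comparison. Scripts were tested on simulated data.

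Alternatives were DESeq2 1.42.0, its size factors, no filter, length and GC offsets (GENCODE 29, mgcv 1.9.3), all libraries in 1 fit, the replicate number as a block, and each library left out.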

Additional observations from a re-analysis of the deposited data

Results flagged for a closer look

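In a group of 4 libraries, 1 library was marked where its gap to the nearest of the others was, as a share of the group's range, above Dixon's critical value for 4 values, which chance gives in about 1 of 20 groups. Of 256 groups checked, 8 for each of the 32 named mitoribosomal genes, 16 were marked. In C4-2B siCTRL cells with TG, library 3 stood apart for MRPL30 (104.1 CPM, the nearest other at 74.7), MRPL37 (98.7 CPM, against 157) and MRPL4 (11.1 CPM, against 22.8). It is 1 of the 3 libraries that leaned most toward long transcripts, as are C4-2B siCTRL library 2, marked for MRPL16 (18.6 CPM, against 34.7) and MRPL34 (15.4 CPM, against 18.7), and LNCaP siCTRL TG library 4, marked for MRPL9 (25.6 CPM, against 31.0).

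In C4-2B the other marked values were MRPL11 at 19.9 CPM in siMOCOS TG library 4 (nearest 26.02), MRPL35 at 47.3 CPM in siMOCOS library 4 (nearest 54.3), MRPS17 at 17.96 CPM in siMOCOS library 3 (nearest 21.7), MRPS18C at 42.1 CPM in siCTRL library 3 (nearest 40.1) and MRPS25 at 79.7 CPM in siCTRL library 4 (nearest 66.1). In LNCaP they were MRPL1 at 44.5 CPM in siMOCOS TG library 4 (nearest 52.8), MRPL18 at 19.7 CPM in siCTRL TG library 1 (nearest 22.5), MRPL41 at 5.77 CPM in siCTRL library 2 (nearest 2.91), and MRPS30 at 34.7 CPM in siCTRL TG library 3 (nearest 32.2) and 43.9 CPM in siCTRL library 4 (nearest 34.1). Results without each of these libraries are among those given under the processing.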

How the results depend on the processing

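Of 1464 alternative values of the 100 called changes of named genes, 1204 kept the call, 260 lost it and none changed direction, and 55 of the 100 kept it without each library. The cause of the changes below was not tested. Shares of all genes called in the alternative fits are not given, so the counts below have no background beside them. Depth limits low genes such as MRPL41, at 0.494 CPM in LNCaP siCTRL TG library 4.

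For TG in C4-2B siCTRL cells, the higher count of 2 was 1 with DESeq2 size factors, 0 with no filter, 4 with length and GC offsets, 4 with all 32 libraries in 1 fit, 1 in the 8 siCTRL libraries alone and 0 without the 3 libraries that leaned most toward long transcripts (left out after seeing the data). Leaving out each library gave 0 to 3 higher and 7 to 28 lower. Replicate numbers were shared by siCTRL libraries with and without TG, but same-numbered libraries did not deviate together (correlations −0.371 to 0.163 in C4-2B and −0.081 to 0.236 in LNCaP). With the replicate block, C4-2B had 0 higher and 9 lower genes and LNCaP 8 higher and 26 lower, and the block with length and GC offsets gave 4 higher in C4-2B and 33 lower in LNCaP. For TG in LNCaP siCTRL cells the higher count was 3 with all 32 libraries in 1 fit, and leaving out each library gave 3 to 8 higher and 15 to 25 lower.

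For TG in siMOCOS cells of C4-2B, 3 were higher with DESeq2 size factors and 3 with no filter, and 22 were lower with all 32 libraries, and leaving out each library gave 3 to 5 higher and 9 to 20 lower. In LNCaP that gave 7 to 10 higher and 12 to 17 lower. Correlations between same-numbered knockdown columns with and without TG ran from 0.062 to 0.501 in C4-2B and from 0.112 to 0.406 in LNCaP. In both lines, columns 1 and 2 without TG matched TG column 1 or 2 best. Columns 3 and 4 matched TG column 3 or 4 best. The comparison of TG in siMOCOS cells was fitted without a block.

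For siMOCOS without TG in C4-2B, 1 was higher with no filter and 1 without the 3 libraries, and 13 were lower with length and GC offsets, 5 with all 32 and 6 without the 3 libraries, with 1 to 2 higher and 0 to 3 lower on leaving out each library. In LNCaP, 2 were higher with length and GC offsets, 3 with DESeq2 and 3 without the 3 libraries, and 6 were lower with no filter, 6 with length and GC offsets and 6 with all 32, with 1 to 3 higher and 5 to 9 lower on leaving out each library.

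For siMOCOS with TG in C4-2B, 2 were higher with no filter, and 7 were lower with length and GC offsets, 5 with DESeq2 and 5 without the 3 libraries, with 2 to 5 higher and 2 to 4 lower on leaving out each library. In LNCaP, 4 were higher with length and GC offsets, 4 with all 32 and 2 without the 3 libraries, and 2 were lower with length and GC offsets, 8 with DESeq2 and 3 with all 32, with 2 to 9 higher and 2 to 9 lower on leaving out each library.

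For LNCaP minus C4-2B in siCTRL cells, 3 were higher with no filter and 3 without the 3 libraries, where 41 were lower, and leaving out each library gave 3 to 5 higher and 15 to 33 lower. Interactions and line differences of responses gave 0 calls in every alternative.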
